A study of Mus musculus with 4 samples.

Results

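Spots rich in the adipocyte transcripts Cfd and Adipoq were examined in 2 sections of normal mouse kidney, profiled on 10x Visium arrays. A Visium spot is a small barcoded disc on the slide that captures polyadenylated RNA from the cells above it, and each captured molecule is counted once by its unique molecular identifier (UMI). For each section, the share of Cfd plus Adipoq in the UMIs of a spot was ranked over tissue spots with at least 500 UMIs, and the top 2% were taken. This gave 52 of 2606 spots in normal section 1 and 53 of 2647 in normal section 2, which is 105 of 5253 spots in the normal sections, while the 4 sections analysed here held 10312 tissue spots. These spots, chosen by their measured share of Cfd plus Adipoq, are called the Cfd- and Adipoq-high spots, or members.

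Both sections were 10 µm cryosections of the left kidney of male wild-type C57BL/6J mice aged 7 to 8 weeks, left without treatment. Kidneys were freed of their capsule after dissection and snap-frozen, so fat seen here is what stayed on or in the organ. The methods describe 2 mice in each condition and technical replicates of each, and the labels do not name the mouse behind a section, so both may come from 1 mouse and the p-values below measure only the spread between 2 sections. The other 2 of the 4 sections, from mice killed 24 h after both renal pedicles had been clamped for 30 min, were used only for the levels of the marker genes. Their 2401 and 2613 tissue spots held 12 and 11 counts of Cfd plus Adipoq in all, against 10419 and 3080 counts in normal sections 1 and 2, and fat left on a section and a change in its cells cannot be told apart there.

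White adipocytes hold a single large lipid droplet coated by perilipin and CIDE proteins, take up fatty acids released by lipoprotein lipase, and secrete adipokines such as adiponectin (Adipoq), resistin (Retn), leptin (Lep) and the serine protease adipsin (Cfd). Brown and beige adipocytes hold many small droplets and burn fatty acids in mitochondria uncoupled by Ucp1. Fat surrounds the kidney outside its capsule and also fills the renal sinus, around the pelvis and the vessels at the hilum, and in young mice the fat around the kidney is known to hold brown as well as white adipocytes.

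Cfd (ENSMUSG00000061780, mm10 chromosome 10 from 79890853 to 79892655, plus strand) and Adipoq (ENSMUSG00000022878, chromosome 16 from 23146536 to 23158028, plus strand) are protein-coding genes, and their levels are a description here because they chose the spots. The share of both genes in a member ran from 0.538% to 5.18% of UMIs with a median of 1.38% in section 1, and from 0.0474% to 4.6% with a median of 0.267% in section 2. The first spot outside the limit held 0.514% in section 1 and 0.0436% in section 2, and the median of the other spots was 0 in both. The same 2% thus reached much lower in section 2, where 18 of 53 members held fewer than 10 counts of the pair and 2 held 1 count, while the lowest member of section 1 held 22 counts. Only 17 spots of section 2 had a share of at least 0.5%, against 53 spots of section 1. Section 2 was also the shallower, with 27657481 UMIs against 44528078.

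Summed over spots and given as CPM, the count scaled to the total UMIs of the summed spots, Cfd reached 17173 and 6579 in members of sections 1 and 2 and 26.8 and 4.26 in the other spots. Adipoq reached 1212 and 494 CPM in members and 1.77 and 0.110 CPM elsewhere. Members held 87.9% of all Cfd counts in section 1 (95% exact binomial interval 87.2 to 88.5) and 96.0% in section 2 (95.2 to 96.6). Of the other spots, 7.91% and 3.32% held a Cfd count, and 1.92% and 0.0771% held an Adipoq count. Intervals here and below cover counting error only. They treat single counts or spots as independent, although most members touch one another, so they measure no spread between sections or mice. These values follow from the choice of spots and support nothing else.

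Most members lay together, at the left side of both arrays. They formed 7 patches of touching spots in section 1 and 8 in section 2, of which the largest held 28 and 44 spots, and 2 and 6 members stood alone. The mean array column, counted from the left, was 14.3 and 29.5 for members and 50.2 and 68.7 for the other spots. In section 1, 25 of 52 members (48.1%, 34.0 to 62.4) touched an array position with no tissue, against 8.46% of the other spots, and in section 2 it was 21 of 53 (39.6%, 26.5 to 54.0) against 12.6%. These edge members include 10 in section 1 and 4 in section 2 that lay in small pieces of tissue detached from the kidney, where every member was at the edge.

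Most members were next to urothelium, the lining of the renal pelvis. A spot was counted as urothelial with at least 3 counts of Upk1a, Upk1b, Upk2, Upk3a, Krt5 and Psca, most of which encode uroplakins of the luminal membrane. In section 1, 41 of 52 members (78.8%, 65.3 to 88.9) lay within 3 array steps of such a spot, against 26.9% of the other spots, and in section 2 it was 46 of 53 (86.8%, 74.7 to 94.5) against 37.6%. In each section 27 members reached this limit of 3 counts themselves. Among all 2616 and 2682 tissue spots of sections 1 and 2, 252 and 350 spots reached it. Of the members in the main tissue piece, 41 of 42 and 46 of 49 were within 3 steps, and the farthest, 1 in each section, lay 10 steps away. The remaining 10 members of section 1 and 4 of section 2 lay in small pieces of tissue detached from the kidney at the upper left, at medians of 11 to 17 steps from urothelium, and every spot of these pieces with at least 500 UMIs was a member. The name perirenal fat therefore describes the position of the detached pieces better than that of most members, and no name of a fat depot is used below.

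**Figure D1:**
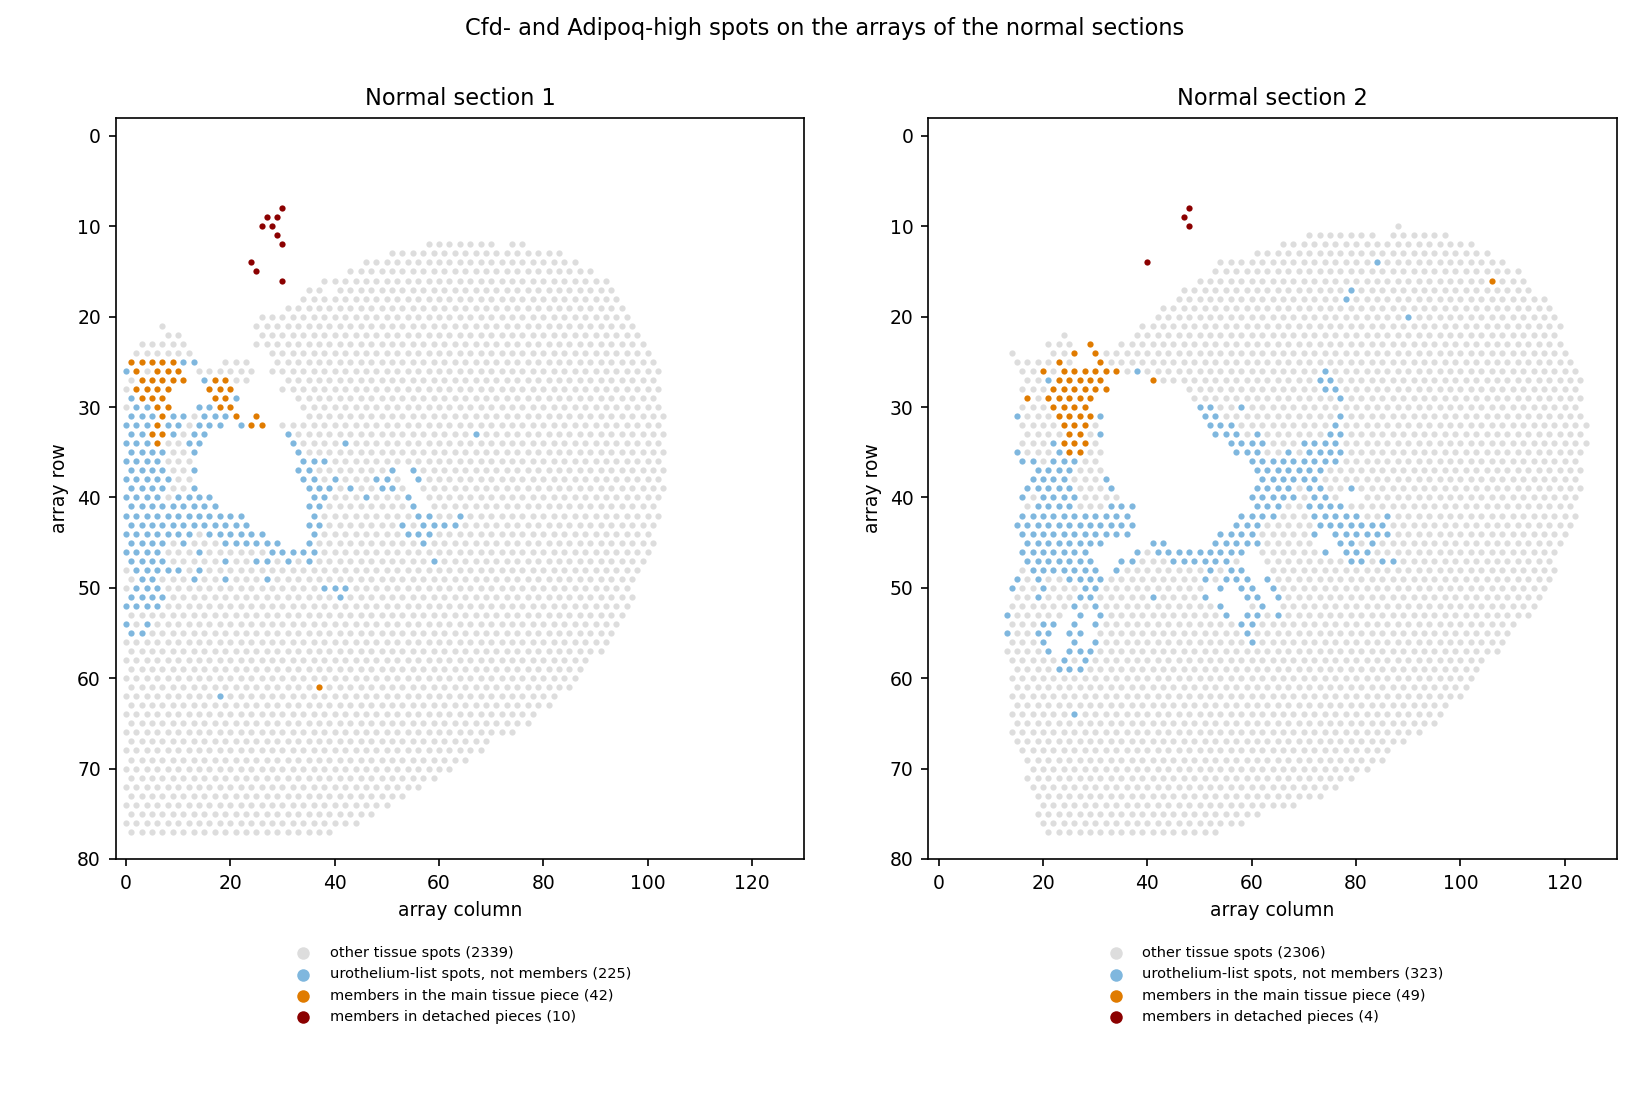
Positions of the tissue spots on the arrays of normal sections 1 and 2 by array column and row. Members in the main tissue piece (orange, 42 and 49 spots) lie mostly at the left near spots with at least 3 counts of the urothelium list (blue), apart from 1 spot in each section at 10 steps from them, and members in detached pieces (dark red, 10 and 4 spots) lie outside the kidney outline.

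Around the patches, the adipocyte transcripts were lower with distance from the members. These spots lie below the limit that chose the members, at no more than 0.514% of Cfd plus Adipoq in section 1 and 0.0436% in section 2, so their Cfd levels are a description that this limit caps and the sections are not compared. In section 1, Cfd stood at 1623 CPM in spots 1 step from a member, 717 at 2 steps, 167 at 3 steps and 17.4 at 4 to 6 steps. In section 2, it stood at 101, 50.9, 7.56 and 7.53 CPM at the same distances. Fabp4, the fatty acid-binding protein of adipocytes and of capillary endothelium, fell from 15239 CPM in members of section 1 to 1495 CPM 1 step out. It stood there at 122 CPM at 4 to 6 steps, 144 at 7 to 12 and 125 beyond 12. In section 2, Fabp4 fell from 6713 CPM in members to 228 CPM 1 step out. It then stood at 127 CPM at 4 to 6 steps, 136 at 7 to 12 and 195 beyond 12. Smooth muscle did not follow this profile. The summed level of Acta2, Myh11, Tagln, Cnn1, Des and Actg2 was 2276 and 1968 CPM in members and 2169 and 2329 CPM at 1 step. It was 313 and 1614 CPM at 3 steps, and 70.9 and 139 CPM beyond 12 steps. These transcripts lay in and around the attached members, at 3020 and 2151 CPM in them, and the detached members held 40.2 and 0 CPM.

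**Figure D2:**
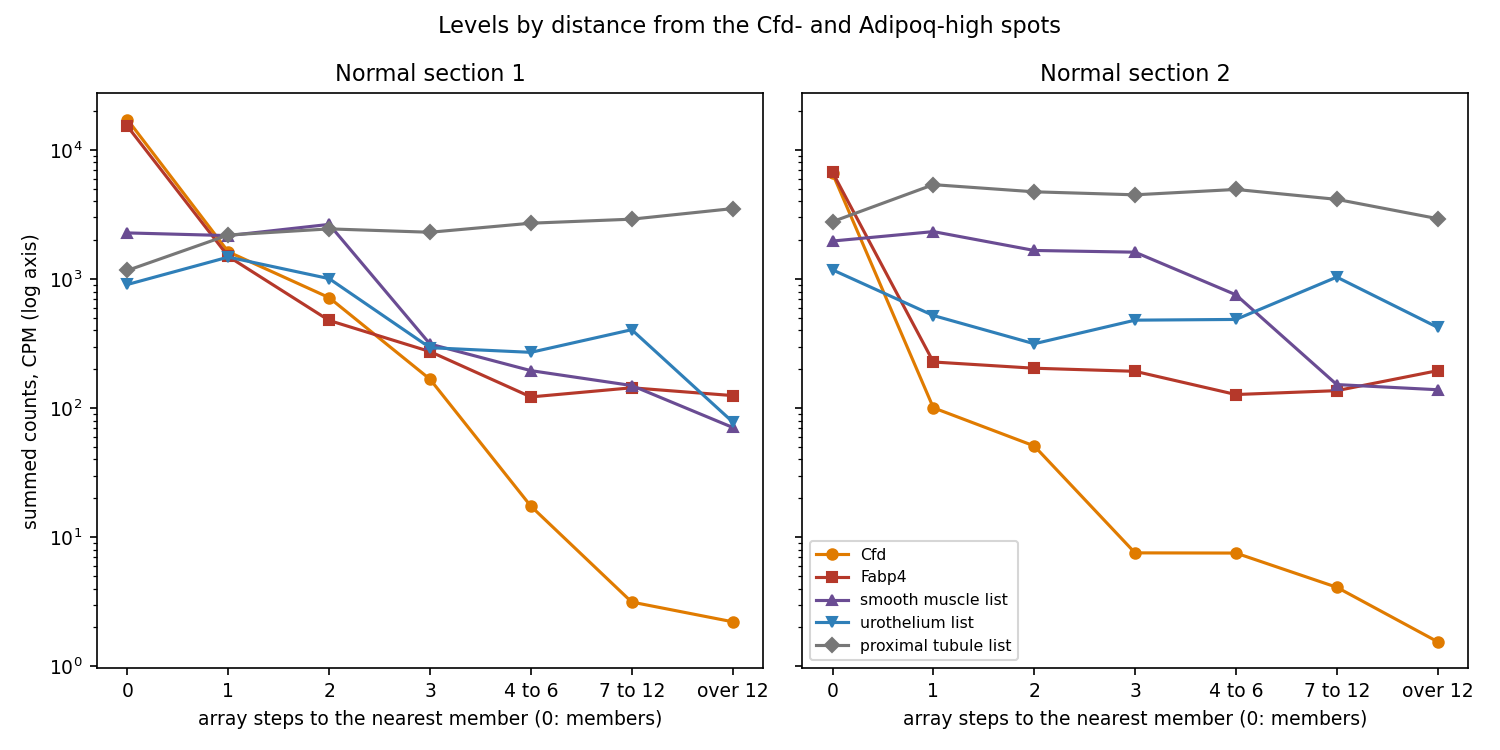
Level of Cfd, Fabp4 and the smooth muscle, urothelium and proximal tubule lists in CPM (log axis) against the number of array steps to the nearest member, in normal sections 1 and 2. Cfd falls from 17173 and 6579 CPM in members to 2.21 and 1.55 CPM beyond 12 steps. The smooth muscle list stands at 2649 and 1664 CPM at 2 steps in sections 1 and 2, and at 313 and 1614 CPM at 3 steps.

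To ask what else set these spots apart, counts were summed over the members and over the other spots of each section, and the 4 sums were compared by edgeR's quasi-likelihood test with the section as a block and Benjamini-Hochberg adjustment at 0.05. Genes other than Cfd and Adipoq entered the choice of spots only through the UMI total. Of 13995 genes tested, 1040 were higher in members (7.43%) and 1002 lower (7.16%), which is 14.6% in either direction. With library totals in place of TMM scaling the split was 1190 higher and 631 lower, and the median log2 fold change of all genes moved by 0.19 from −0.08. The design leaves 1 residual degree of freedom, so the small p-values rest on the spread that edgeR shares across genes. A spot mixes cells, so more adipocytes in a spot and more RNA per adipocyte cannot be told apart.

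Most adipocyte genes were higher in members. Of 56 genes in 6 lists for adipokines, lipid droplets, lipid uptake and storage, lipolysis, lipogenesis and adipocyte transcription factors, 55 were tested, 46 were higher and none was lower, at a median log2 fold change of 2.26 against −0.08 for all genes tested. With members instead taken at a share of at least 0.5% in both sections, 48 were higher. These transcripts are known from the same cells as Cfd and Adipoq, so their count describes the spots and is not independent evidence of their kind.

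Among secreted factors, Retn reached 2047 and 810 CPM in members of sections 1 and 2 against 3.59 and 0.514 CPM in the other spots, a log2 fold change of 9.46 (SE 0.40, edgeR adjusted p = 9.17e-14). Retinol-binding protein Rbp4 reached 325 and 134 CPM against 3.86 and 6.76 CPM, and chemerin (Rarres2), Angptl4, an inhibitor of lipoprotein lipase, and Nrg4, a factor released by brown fat, were also higher, at log2 fold changes from 1.95 to 3.57. Neuronatin (Nnat), which is expressed in adipose tissue as well as in neurons, stood at 191 and 52.6 CPM against 0.227 and 0.257 CPM. Apelin (Apln) did not pass the threshold, at 2.01 and 7.17 CPM against 6.45 and 6.65 CPM. Leptin was too sparse to test, with 24.1 and 2.39 CPM in members and 0 counts in all other spots of both sections. The adipokines named as higher stood above the other spots in both sections, and their levels in members were lower in section 2.

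The genes of the lipid droplet ranged from those nearly absent from the other spots to those, such as Plin2, with clear levels there. Perilipin 1 (Plin1), which guards the droplet of adipocytes, stood at 199 and 76.4 CPM against 0.341 and 0.110 CPM, and Cidec, which fuses droplets into a single large one, at 1425 and 542 CPM against 2.77 and 0.808 CPM. Their log2 fold changes were 8.96 (SE 0.35) and 8.94 (SE 0.33), with adjusted p = 2.95e-14 and 1.09e-14 by edgeR. Plin2, the perilipin of most other cells, was 231 and 136 CPM in members against 72.3 and 65.1 CPM, a log2 fold change of 1.2. The lipase regulators G0s2 and Abhd5 and the seipin gene Bscl2 were likewise higher by 1.04 to 1.25 on the log2 scale. The caveolar genes Cav1 and Cavin1 were higher by 3.94 and 3.50, and Hilpda was the only gene of this list not past the threshold.

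Fabp4 (ENSMUSG00000062515, mm10 chromosome 3 from 10204088 to 10208576, minus strand) reached 15239 and 6713 CPM in members against 146 and 183 CPM in the other spots. Its log2 fold change was 5.76 (SE 0.39, edgeR adjusted p = 2.75e-10). By spot, Fabp4 was counted in all 52 members of section 1 and in 51 of 53 of section 2. Of 16 genes for uptake and storage, 13 were higher, among them the phosphatidic acid enzyme Agpat2 at 2.96, the acyl-CoA synthetase Acsl1 at 2.13 and the last enzymes of triglyceride synthesis, Dgat1 and Dgat2, at 2.35 and 1.65 on the log2 scale. Cd36 and Lpl, the fatty acid carrier and the lipase that feeds it, were higher by 0.81 and 0.76, over 231 to 385 CPM of each in the other spots, and neither was called with DESeq2 or without the section block (edgeR adjusted p = 0.072 and 0.093 without it). The glucose transporter Slc2a4 was called at 1.35, yet in section 2 its level was 16.7 CPM in members and 19.2 CPM in the others, so section 1 carried this call. Gpam, Lpin1 and Pck1 did not pass the threshold. Pck1, a gluconeogenic enzyme of proximal tubule as well as of fat, was at 957 and 564 CPM in members against 537 and 562 CPM.

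All 5 lipolysis genes were higher. The beta-3 adrenergic receptor Adrb3, found mainly on adipocytes, stood at 185 and 83.6 CPM against 0.704 and 0.331 CPM, a log2 fold change of 7.77 (SE 0.32, edgeR adjusted p = 6.26e-14). Hormone-sensitive lipase (Lipe) was higher by 5.09, the triglyceride lipase Pnpla2 by 2.89, the monoglyceride lipase Mgll by 3.08 and the phosphodiesterase Pde3b by 3.94. The receptor, the 3 lipases and the phosphodiesterase were thus all higher in the same spots.

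Of 11 lipogenesis genes, 9 were higher. Fatty acid synthase (Fasn) was at 2270 and 805 CPM against 53.9 and 52.6 CPM, acetyl-CoA carboxylase (Acaca) at 247 and 90.8 CPM against 7.00 and 8.30 CPM, and the desaturase Scd1 at 3562 and 1249 CPM against 117 and 99.7 CPM. Thrsp, a regulator of lipogenesis, and carbonic anhydrase 3 (Car3), an abundant adipocyte protein, had the largest changes of the list, at 5.91 and 6.34 on the log2 scale. Malic enzyme (Me1) at −0.25 and the sugar-sensing factor Mlxipl at −0.66 did not pass the threshold. Of 6 transcription factors, Pparg, the master regulator of adipocytes, was higher at 62.2 and 38.2 CPM with a log2 fold change of 4.46, as were Cebpa, Cebpb and Ebf1. Cebpd at 0.71 and Klf15 at −0.51 did not pass the threshold.

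**Figure D3:**
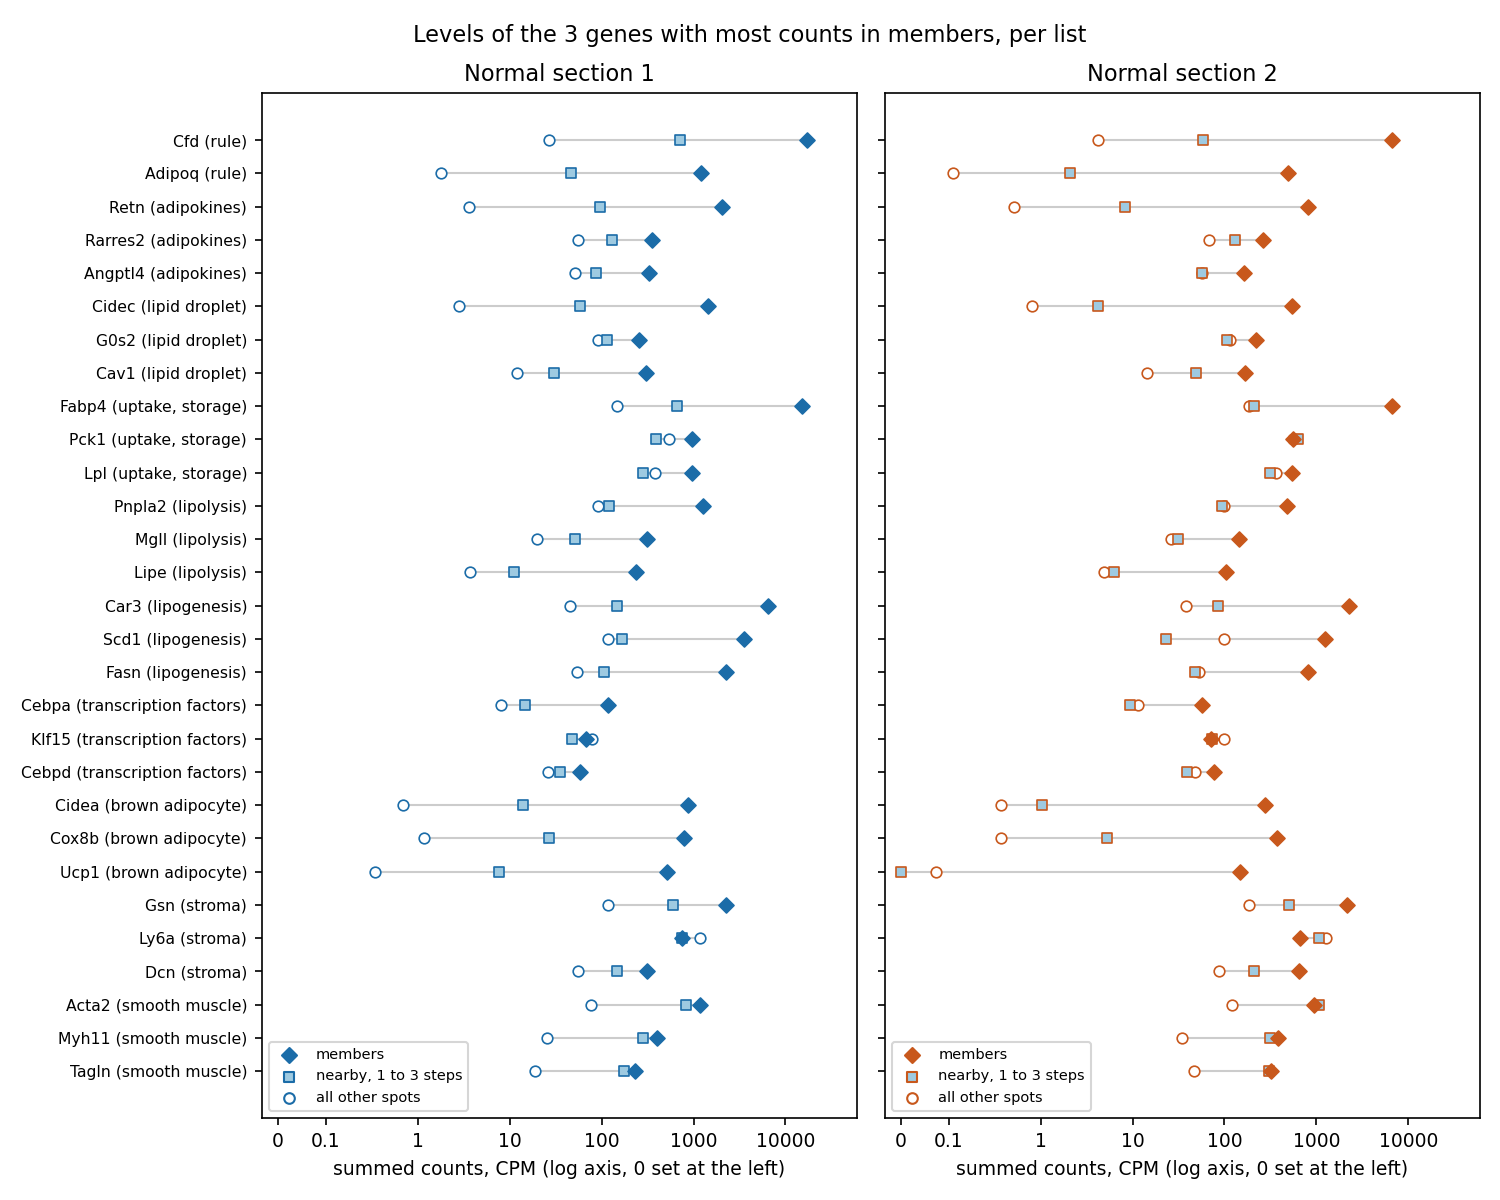
CPM (log axis, 0 set at the left) of the 3 genes with the most counts in members in each list, in members (diamonds), in spots 1 to 3 steps away (squares) and in all other spots (circles), for normal sections 1 and 2. Retn, Cidec, Fabp4, Cidea and Cox8b are far apart between members and others, whereas Pck1, Klf15 and Ly6a are close.

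Of brown adipocyte genes, a few were far apart between the groups. Among the 15 genes with the largest log2 fold change in members, named without Cfd (9.74) and Adipoq (9.79) because these chose the spots, Ucp1 stood at the top, with 518 and 148 CPM in members against 0.341 and 0.0734 CPM in the other spots, a log2 fold change of 10.35 (SE 0.34, edgeR adjusted p = 4.61e-15). Ucp1 (ENSMUSG00000031710) lies on mm10 chromosome 8 from 83290352 to 83298452, plus strand. Cidea, a droplet protein of brown and beige fat, stood at 865 and 279 CPM against 0.681 and 0.367 CPM, and Cox8b, a cytochrome c oxidase subunit of brown fat and muscle, at 781 and 370 CPM against 1.18 and 0.367 CPM. Of 16 brown adipocyte genes 13 were tested, 8 were higher and 2 were lower, with a median log2 fold change of 1.37. The deiodinase Dio2, the potassium channel Kcnk3, Cox7a1, Plin5 and Cpt1b were the other ones higher. The heart-type fatty acid-binding protein Fabp3 was lower by 1.49 on the log2 scale, and glycerol kinase (Gk) was lower by 1.21. Both were at 188 CPM or above in the other spots. Ppargc1a, Prdm16 and Letmd1 did not pass the threshold, and Elovl3, Ebf2 and Otop1 had too few counts to test.

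The other genes of the 15 were, in order after Ucp1 and Cidea and again without Cfd and Adipoq, the acute-phase protein Orm1, Retn, Cox8b, the amino acid transporter Slc36a2, Plin1, Cidec, Nnat, the adipogenesis regulator Adig, haptoglobin (Hp), Adrb3, the melanocortin receptor partner Mrap, Plin4 and the retinol-binding protein Rbp7. Their log2 fold changes ran from 7.03 to 9.61. Orm1 was at 160.5 and 59.7 CPM against 0.182 and 0.0367 CPM, Adig at 566 and 260 CPM against 1.11 and 0.588 CPM, and Hp at 797 and 239 CPM against 1.63 and 1.84 CPM. All of them are known to be expressed in fat, brown fat in the case of Slc36a2.

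Ucp1 was unevenly spread among the members. It was counted in 22 of 52 members of section 1 (42.3%, 28.7 to 56.8) and 7 of 53 members of section 2 (13.2%, 5.48 to 25.3), against 0.392% and 0.0771% of the other spots, at median depths of 8568.5 and 6775 UMIs in members and 16395 and 8788 UMIs in the others. Members held 94.5% and 96.9% of all Ucp1 counts. In the largest patch of section 1, 13 of 28 spots held 79 Ucp1 counts, which is 341 CPM. Beside it, a patch of 10 spots held 0 Ucp1 counts in 103748 UMIs, which allows up to 28.9 CPM, although it held 1263 Cfd counts, and a patch of 3 spots held 0 Ucp1 counts beside 837 Cfd counts, which allows up to 94.2 CPM. In section 2, the patch of 44 spots held 14 Ucp1 counts in 4 spots, or 41.5 CPM.

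The detached pieces held the most Ucp1. In section 1 the detached piece of 7 spots had 162 counts, or 1634 CPM, and the piece of 2 spots 17 counts, or 714 CPM, while in section 2 the detached piece of 3 spots had 48 counts, or 1607 CPM. All spots of these 3 pieces held Ucp1. The detached single spots, of 1540 and 5727 UMIs, held none, which allows up to 1948 and 524 CPM. Per 100 Cfd counts, a ratio that cells lacking both transcripts do not dilute, detached members held 5.77 and 6.49 Ucp1 counts in sections 1 and 2 and the members of the main tissue piece held 1.45 and 0.695. The 10-spot and 3-spot patches without Ucp1 allow up to 0.238 and 0.358 per 100 Cfd counts.

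Lipogenic genes had a higher ratio to Cfd in detached members, while several general adipocyte genes were close between the 2 kinds of members. Per 100 Cfd counts, Scd1 was at 36.7 and 34.7 in detached members against 11.6 and 13.2 in the main piece, Fasn at 21.1 and 17.8 against 8.74 and 10.2, and Cidea at 7.25 and 7.03 against 3.78 and 3.23. Fabp4 was at 116 and 148 against 73.2 and 85.0. By the same measure, Adipoq was at 8.06 and 8.51 against 6.49 and 7.15, Retn at 12.1 and 9.73 against 11.8 and 13.3, Plin1 at 1.16 and 1.22 against 1.15 and 1.14, and Adrb3 at 1.22 and 1.08 against 0.990 and 1.34. Lep went the other way in section 1, with 11 counts in 42 members of the main piece and 1 count in 10 detached members, and section 2 held 1 count in all. The difference between detached and attached members was noticed in these data and was not tested, since spots of a section are not replicates.

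**Figure D4:**
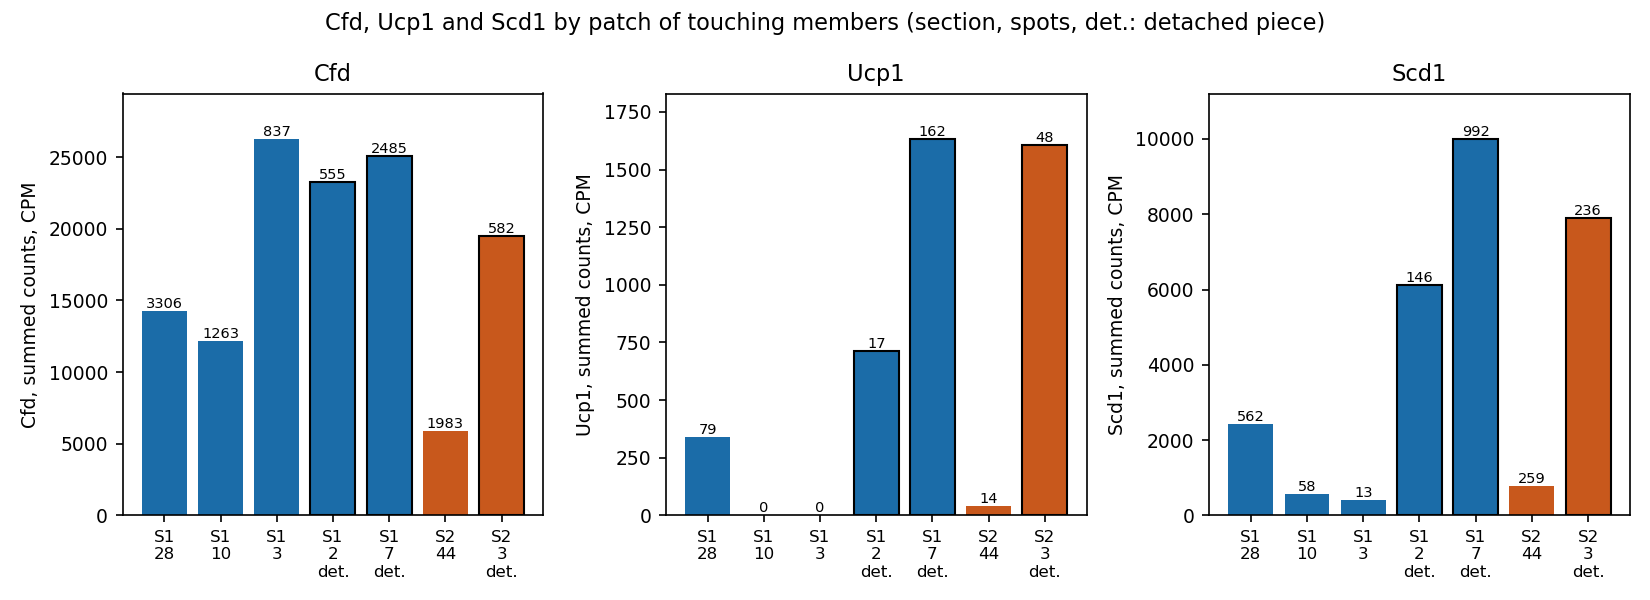
Cfd, Ucp1 and Scd1 in CPM for each patch of at least 2 touching members, labelled by section (S1, S2) and number of spots, with detached pieces outlined and the number of counts above each bar. Cfd is high in all 5 patches of section 1, whereas Ucp1 is at 0 in the patches of 10 and 3 spots and reaches 1634 and 1607 CPM in the detached pieces of 7 and 3 spots.

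Other cell types were measured in the same spots. Of 13 stromal and progenitor genes, 9 were higher in members. Clec3b had the largest log2 fold change, 4.89. The most abundant was the actin-severing protein gelsolin (Gsn), at 2278 and 2176 CPM against 118 and 186 CPM. Pi16, a marker of adventitial fibroblasts, was at 148 and 186 CPM against 9.31 and 15.7 CPM, and Col1a1, Col3a1, Dcn, Lum, Mfap5 and Cd34 were the others higher. The stem cell antigen Ly6a was lower, at 757 and 664 CPM against 1188 and 1280 CPM, and Dpp4, a peptidase of interstitial progenitors and of tubule brush border, was lower by 1.54 on the log2 scale. All 6 smooth muscle genes were higher, with Acta2 at 1188 and 941 CPM against 76.0 and 120 CPM. Of blood endothelium genes, 4 of 6 were higher, with von Willebrand factor (Vwf) at 92.3 and 97.9 CPM against 3.20 and 4.44 CPM, while the fenestral gene Plvap and Emcn did not pass the threshold. Of lymphatic genes 3 of 5 were higher, on few counts, with Lyve1 at 11 counts in members of both sections together.

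Nerve sheath was also present. Of 8 genes 5 were tested and 4 were higher, among them the myelin gene Mbp, at 34.1 and 74.1 CPM against 5.75 and 7.82 CPM (log2 fold change 2.76, SE 0.35, edgeR adjusted p = 4.93e-06). The sympathetic genes Th and Dbh had 0 counts in members. The mesothelial genes gave no common direction, with Upk3b higher by 1.46 (edgeR adjusted p = 0.061 without the section block), Gpm6a lower by 2.43 on the log2 scale, and Lrrn4 and Muc16 at 0 in all spots. Markers of neighbouring organs had few counts. Of 9 adrenal genes, 6 were at 0 counts in members, among them Cyp11b1, Cyp21a1 and Star, and 3 had counts. The summed adrenal list held 4 counts in members of each section, at 8.03 and 9.56 CPM against 2.94 and 3.29 CPM beyond 12 steps. The skeletal muscle list was at 2 counts in each section. The mast cell list held 2 counts, both of Cpa3 in section 2.

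Of immune lists, 3 of 6 T cell genes tested, 3 of 6 B and plasma cell genes and 2 of 7 macrophage genes were higher in members, against 7.43% of all genes tested. The summed T cell list was 28.1 CPM in members of section 1 and 182 CPM in members of section 2, against 14.7 and 28.9 CPM in the other spots, so the level in members was higher in section 2. The T cell receptor genes Trbc2 and Trac were at 74.1 and 31.1 CPM in members of section 2 and at 8.03 CPM each in section 1. The summed B and plasma cell list was 40.1 and 239 CPM in members of sections 1 and 2, against 53.3 and 79.1 CPM beyond 12 steps. In section 2 this list reached 366 CPM at 4 to 6 steps. Its tested genes ran from −2.55 to 2.96 on the log2 scale, with none called lower. Igha, a plasma cell gene outside the list, had 0 counts in members. With a share of at least 0.5% in both sections, which leaves 17 members in section 2, the calls of Trbc2, Trac, Cd3g, Cd79a and Ighm were lost, as were those of the lymphatic genes Mmrn1 and Ccl21a. Of macrophage genes, C1qa and C1qc passed the threshold at 1.24 and 0.92 on the log2 scale, while Csf1r, Cd68, C1qb and Adgre1 did not.

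Blood transcripts were far apart between the members of both sections. The 5 erythroid genes, led by the hemoglobin genes Hbb-bs and Hba-a1, summed to 5494 CPM in members of section 1 and 45331 CPM in members of section 2, against 8944 and 8500 CPM in the other spots. None of the 5 genes passed the threshold, at log2 fold changes from 0.47 to 0.91. In section 2 the counts lay in the attached members, at 49495 CPM, and not in the detached ones, at 534 CPM. The part of blood in the lower Cfd and Adipoq share of section 2 was not tested.

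Tubule genes were lower in members. All 5 genes of the outer stripe, all 4 of the thick ascending limb, 3 of 4 of the distal convoluted tubule and 4 of 7 of the cortical proximal tubule were lower, and none of these 20 genes was higher. The summed cortical proximal tubule list was at 1166 CPM in members of section 1, against 3511 CPM beyond 12 steps. In section 2 it was at 2781 CPM in members, against 5383 CPM at 1 step but only 2935 CPM beyond 12 steps. Without the section block, 1 of the 4 proximal tubule calls was lost. The amino acid transporter Slc7a13 was at 122 and 110 CPM against 540 and 479 CPM, uromodulin (Umod) at 1579 and 229 CPM against 3075 and 3504 CPM, and the endocytic receptor Lrp2 (megalin) at 153 and 349 CPM against 555 and 531 CPM. Podocyte genes did not differ past the threshold in any of 5 cases. In contrast, 3 of 5 genes of the inner medullary collecting duct were higher, with the water channel Aqp2 at 1218 and 1620 CPM against 273 and 348 CPM, as were 5 of 6 urothelium genes, by 1.39 to 2.60 on the log2 scale. The detached members held 0 counts of the urothelium list in 124499 and 35595 UMIs, which allows up to 24.1 and 84.3 CPM, and 0 counts of Acta2. They still held 418 and 646 CPM of Umod, and the source of these counts was not tested.

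**Figure D5:**
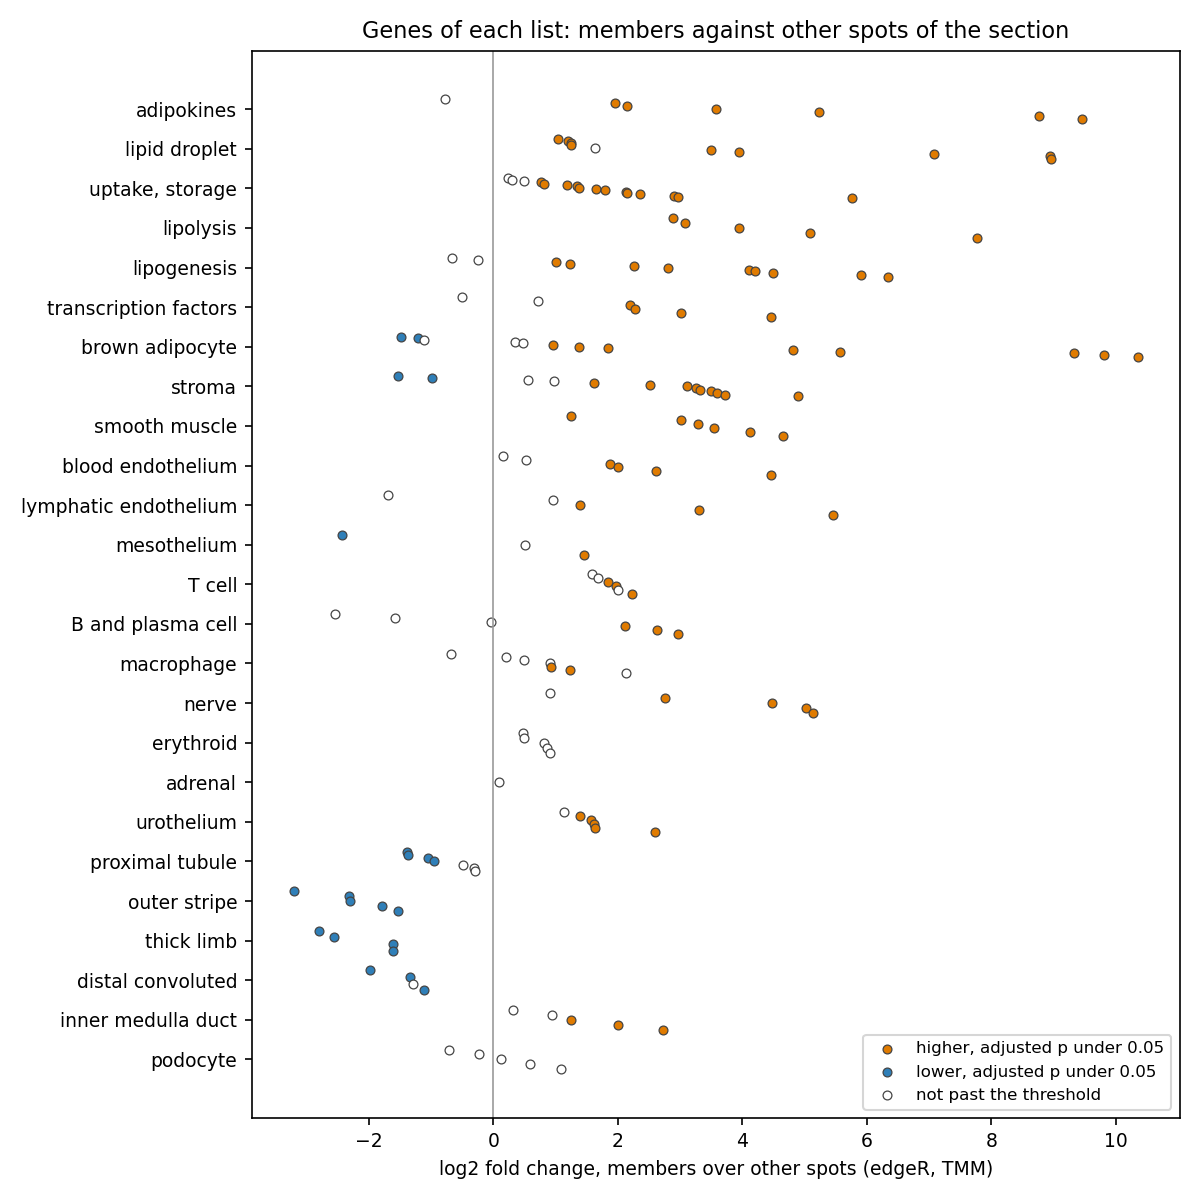
Log2 fold change of members over other spots of the same section for each tested gene of the lists, 1 row per list, filled where edgeR's adjusted p was under 0.05. Most points of the adipocyte lists and all 6 of smooth muscle lie to the right, with the brown adipocyte list running from −1.49 to 10.35 for Ucp1, and those of the outer stripe and thick limb lists to the left, down to −3.21 for Serpina1f.

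The 10 genes that stood lowest in members were at 0 counts there in both sections, so only a bound can be given, from 3 counts over the members of both sections. Immunoglobulin A heavy chain (Igha) was at 17.2 and 30.8 CPM in the other spots and at least 6.84-fold lower in members. The complement gene C8a was at least 4.74-fold lower, and Tmem61, Sim1, Tmem207, Sowahb, Entpd8, Gm5820, 4930594M22Rik and Defb42 were at least 2.22-fold to 3.02-fold lower. With DESeq2, 9 of these 10 genes were not called. Because they were at 0, genes with counts in members were added after the values were seen. The lowest of them were Serpina1f, a gene of the outer stripe, at 94.3 and 28.7 CPM against 522 and 414 CPM (log2 fold change −3.21, SE 0.30, edgeR adjusted p = 5.58e-08), and tissue kallikrein (Klk1), an enzyme of the connecting tubule, at 740.5 and 626 CPM against 5101 and 5754 CPM (−3.18, SE 0.30, adjusted p = 6.68e-08).

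Since members lay in a particular place, they were also compared with the 125 and 112 spots within 1 to 3 steps of a member that were not members themselves. Of 7714 genes tested by the same edgeR test, 411 were higher (5.33%) and 331 lower (4.29%), 9.62% in all, and with DESeq2 108 were higher and 38 lower. Of 52 genes of the 6 adipocyte lists tested here, 45 were higher and none was lower, at a median log2 fold change of 2.26 against 0.01 for all genes. Nearby spots are below the limit on Cfd plus Adipoq, so this count too describes the choice of spots. Beside Cfd (5.65) and Adipoq (5.38), which chose the spots, the largest were Ucp1 at 6.34, Cidea at 6.25, Orm1 at 5.33, Cidec at 5.25 and Cox8b at 5.23. Ucp1 was at 7.72 CPM in nearby spots of section 1, and 0 counts in section 2.

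Against nearby spots, lists of other tissue differed in their counts of calls, and no difference between lists was tested. Of 6 smooth muscle genes only Actg2, an actin of visceral muscle, was higher, and Acta2 was at 824 and 1068 CPM nearby against 1188 and 941 CPM in members (log2 fold change 0.20, edgeR adjusted p = 0.790). None of 5 collecting duct genes and 2 of 6 urothelium genes were higher. In contrast, 8 of 12 stromal genes and 4 of 6 blood endothelium genes were still higher, as was Mbp, with Gsn by 2.05, Clec3b by 2.41, Vwf by 1.96, Cldn5 by 1.76 and Mbp by 1.36 on the log2 scale. The detached members held 201 and 140 CPM of the blood endothelium list and 0 counts of Pi16, against 765 and 752 CPM and 74 and 78 counts in the attached ones, while Gsn was at 2602 and 2444 CPM in detached and 2169 and 2151 CPM in attached members. The lowest against nearby spots were Klk1 at −2.39, Apob at −2.20, Akr1c14 at −2.15, Haao at −2.13 and Tmem52b at −2.12. Members held 1 and 6 counts of Apob in sections 1 and 2, and its log2 fold changes were −3.70 and −0.34. Among other tubule lists, 2 of 7 cortical proximal tubule genes, 1 of 3 thick limb genes and 2 of 3 distal convoluted genes were called lower. In section 1 the summed thick limb list was at 1868 CPM in members, against 1345, 1633 and 3075 CPM at 1, 2 and 3 steps. Of 5 outer stripe genes, 4 were also called lower. One of them, Serpina1f, went the other way in section 2, with 28.7 CPM in members and 18.8 CPM nearby. Without the section block, Klk1, Apob, Akr1c14 and Tmem52b were not called, at edgeR adjusted p from 0.053 to 0.171. DESeq2 did not call Klk1 here either, and it stood at 1376 CPM nearby in section 1 and 9735 CPM in section 2.

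The members were in part the same spots as those richest in smooth muscle or stromal genes, and less so in urothelium genes. Members made up 2% of the ranked spots of each section, which is the share to set beside these overlaps. The top 2% of spots by the smooth muscle list shared 13 of 52 spots with the members in section 1 (25.0% of each) and 11 of 53 in section 2 (20.8%). The top 2% by the stromal list shared 7 (13.5%) and 16 (30.2%), and those by the urothelium list shared 2 (3.85%) and 3 (5.66%).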

How the data were processed

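The data were UMI counts from 2 normal and 2 ischemic mouse kidney sections on Visium arrays. Further sections and assays of the study were not used here. The authors ran Space Ranger 1.3.0 (file headers) against mm10 (processing notes) and deposited raw counts of 32285 genes per tissue spot, without normalization. Coordinates came from GENCODE annotation of mm10 by gene identifier, matched for 32158 genes. Because UMI counts tag the 3′ end of a transcript, no length scaling was applied.

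Spots with at least 500 UMIs were ranked by the share of Cfd plus Adipoq, and the top 2% per section became members. In sections 1 and 2, 10 and 35 spots fell below 500 UMIs. Steps were counted on the hexagonal array, and no image was used. Counts were summed per section over members, over the other spots and over spots 1 to 3 steps away. The sums were tested in R 4.3.3 with edgeR 4.0.16 (TMM, filterByExpr, quasi-likelihood, Benjamini-Hochberg at 0.05) with the section as a block, since both sums of a section come from 1 library. DESeq2 1.42.0 was an alternative. The procedure was tested on simulated sums in which 100 genes were changed 2-fold and 100 were changed 8-fold. Against other spots, edgeR recovered 12 and 67 of these, with 7 false calls. Against nearby spots it recovered 7 and 77, with 0 false calls. A gene that did not pass the threshold may therefore still differ by 2-fold or more. Shares carry 95% Clopper-Pearson intervals, and where no count was seen, 3 counts gave the upper limit.

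Named genes were Cfd and Adipoq, genes of 27 lists (198 genes), and the 15 highest and 10 lowest log2 fold changes past the threshold, in the same direction in both sections and with at least 100 counts, and 5 each way against nearby spots. The members and lists were chosen with earlier results of these data known. Alternatives were other shares of spots, UMI limits, markers, scalings, filters and tests, and each section alone. Equal shares in both sections and patches of at least 3 members were added after seeing the data. Values of 1 listed gene are not reported here.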

Additional observations from a re-analysis of the deposited data

How the results depend on the processing

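Counts of called genes moved with the choices made, and the cause was not tested. Against the other spots, lower calls (1002) went to 464 with DESeq2, 631 with library totals only and 141 with the top 5% of spots, where higher calls (1040) went to 689. Against nearby spots, higher and lower calls (411 and 331) went to 108 and 38 with DESeq2, 115 and 9 with spots 1 step away and 808 and 714 with spots 2 to 5 steps away. Without the replicate block, which pairs the sums of a section, they went to 184 and 24, while against the other spots they were 1106 and 953. Adipocyte list genes called higher (46) went to 30 with the top 5% of spots and were 40 to 48 under the other settings tested. With 1 section alone no test can be made, and 37 to 47 of these genes, against 45, were over 2-fold higher. The mean of both sections for members at the tissue edge (43.8%) went to 63.5% with the top 1% of spots and 58.9% with a share of at least 0.5%, and ranged from 39.6% to 48.1% by section. Members within 3 steps of urothelium (82.8%) went to 73.1% with the top 1% of spots and 73.4% with Adipoq alone, and ranged from 78.8% to 86.8% by section. Adipoq alone could not fill the top 2% of section 2, where 38 spots held any. Of single genes, Cd3g turned to −0.29 on the log2 scale (edgeR adjusted p = 0.930) with a share of at least 0.5%, Cd79a to −7.74 (edgeR adjusted p = 0.703) with the top 1% of spots, and Slc2a4, with no test, to −0.29 without replicate 1 and 2.16 without replicate 2. The low depth of members in section 2 limits genes at few counts.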
